A study of Homo sapiens with 12 samples.

Results

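The 10 genes described here encode insulin-like growth factor 2 (IGF2), 4 of the IGF binding proteins (IGFBP1 to IGFBP4), the receptors IGF1R, IGF2R and INSR, and the insulin receptor substrates IRS1 and IRS2. They were chosen by symbol, and all 10 were found among the 16389 genes of the count table. The cells were HepG2, an established human liver cancer line, taken at passage 9 and kept in medium with fetal bovine serum, which itself carries growth factors. LG cells were kept in 5.5 mM glucose and HG cells in 20 mM glucose for 48 h. LGV and HGV cells were kept in the same media for 48 h and then given 1 mM valproic acid (VPA), an inhibitor of histone deacetylases, for 12 h. Each of the 4 groups had 3 libraries of poly(A)-selected RNA. The harvest time of the untreated cells relative to those 12 h is not given, so VPA and added culture time cannot be told apart. The labels do not say whether replicates were separate cultures, so the p values measure the spread between these libraries, which may be technical.

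IGF2 and insulin signal through tyrosine kinase receptors of the same family, IGF1R and INSR, which pass the signal on by phosphorylating the adaptor proteins IRS1 and IRS2. IGF2R is a scavenger that carries IGF2 to the lysosome and does not signal in this way. The binding proteins hold IGFs in the circulation and in tissue, and liver is a main source of IGFBP1, whose transcription insulin is known to repress through FOXO factors. IGF2 is made from an imprinted gene that is most active in fetal tissue, and many liver tumours express it.

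Between 29798442 and 45572694 reads were counted per library. A count of 3 reads, used as the floor for detection, stood for 0.0713 to 0.112 CPM (counts per 1e6 reads, scaled with TMM factors), and this floor covers counting error only. Hepatocyte markers were abundant in the 12 libraries, from 125 CPM for the lowest value of TTR to 29437 CPM for the highest of ALB. Of 7 markers of leukocytes, endothelium and fibroblasts, 3 had rows in the table (CD14, VWF and COL1A1), and none of these passed 4.73 CPM in any library. At these low levels CD14 was called higher in HG than in LG (log2 fold change 1.28) and in HGV than in LGV (1.51), and lower in HGV than in HG (-0.56). COL1A1 was called higher with VPA in low (2.36) and high glucose (2.52) and in HGV than in LGV (0.81). The summed level of the 8 hepatocyte markers ran from 51482 to 58027 CPM in LG, 52213 to 59492 in HG, 39671 to 40624 in LGV and 46319 to 60846 in HGV. It was thus lowest in LGV, where 5 of the 8 markers were called lower than in LG (19.9% of all genes), with a median log2 fold change of -0.45. In HGV against LGV 3 of the 8 were called higher (21.2% of all genes), with a median of 0.36. Between HG and LG 1 of the 8 was called, higher (12% of all genes). Between HGV and HG 1 was higher and 1 lower (25.8% and 20.2% of all genes). The part of these shifts in the results below was not tested. LG replicate 3 lay nearer to the HG libraries than the other LG libraries did for several of the 10 genes, and results that rest on it are given with and without it.

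Per length of transcript, the 10 genes spanned more than 4 orders of magnitude. Levels are given as RPKM, the CPM divided by the length in kilobases of the main annotated transcript. In LG, IGFBP1 had 3405 ± 525 RPKM (SD, n = 3) and IGF2 had 658 ± 69.8 RPKM (SD, n = 3). These secreted proteins stood far above the receptors. IGF2R followed with 59.2 ± 9.87 RPKM, then IGF1R with 25.8 ± 4.49, INSR with 24.6 ± 3.60, IGFBP4 with 15.9 ± 0.974 and IRS1 with 11.4 ± 0.971 (SD, n = 3 each). IGFBP3 had 5.79 ± 0.789 RPKM and IGFBP2 had 5.64 ± 0.883 RPKM (SD, n = 3 each). IGF1R and INSR overlapped between libraries, as did IGFBP3 and IGFBP2, so the order within those pairs is not resolved in LG. IRS2 was lowest, with 0.221 ± 0.0686 RPKM (SD, n = 3). In HG the order began in the same way, with IGF1R (22.9 ± 0.971 RPKM), IGFBP4 (19.2 ± 3.45) and INSR (19.2 ± 1.15) in the middle, where IGFBP4 overlapped with both receptors (SD, n = 3 each). In LGV, IGFBP4 stood at 33.2 ± 0.523 RPKM (SD, n = 3), above both IGF1R and INSR and below IGF2R without overlap. In HGV the order changed further, and IGFBP4 reached 47.9 ± 7.29 RPKM and IGFBP3 27.3 ± 4.62 RPKM (SD, n = 3 each). IGF2R, with 40.0 ± 7.73 RPKM in HGV, then overlapped with IGFBP4, and IGF1R, with 21.3 ± 3.45 RPKM, overlapped with IGFBP3 and IGFBP2. IGFBP1, IGF2 and IRS2 kept the first, second and last place in each of the 4 groups.

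**Figure D1:**
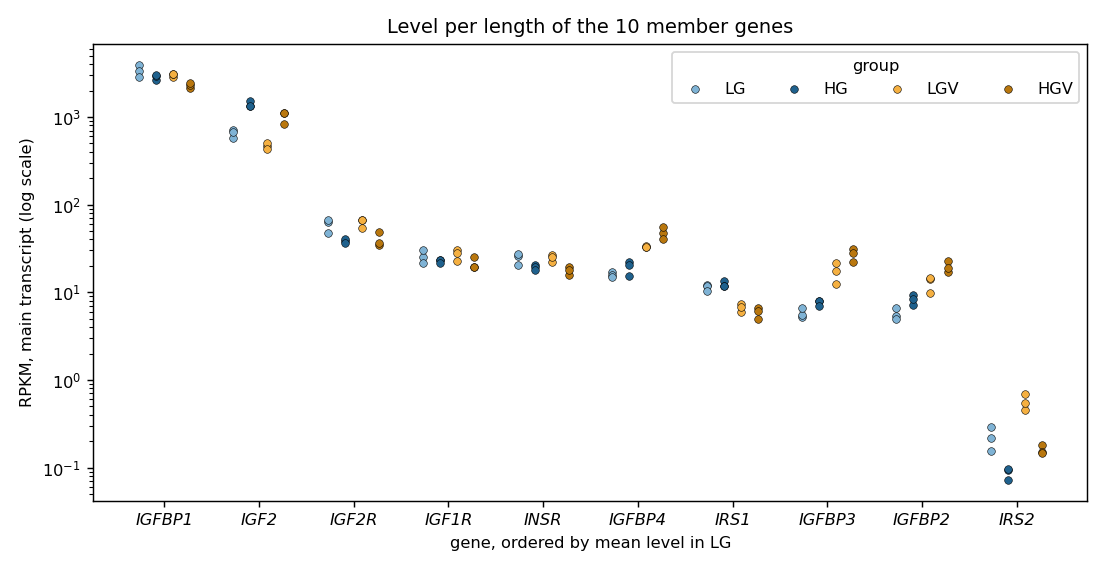
RPKM over the main transcript (log axis) for the 10 genes, ordered by their mean in LG, with 1 point for each of the 3 libraries of LG, HG, LGV and HGV. IGFBP1 and IGF2 lie at 426 RPKM or above in each library, the receptors lie between 15.7 and 66.5 RPKM, and IRS2 lies at 0.693 RPKM or below.

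Each comparison was fitted across the whole table by edgeR (quasi-likelihood F test), and a gene was called at a Benjamini-Hochberg FDR of 0.05 or less. In high against low glucose without VPA, 4 of the 10 genes were called, 2 higher and 2 lower, against 24.7% of the 15452 genes tested (12% higher and 12.7% lower). Without LG replicate 3 the number was 7, and the calls over all genes also rose, from 3813 of 15452 to 5338 of 15407. In HGV against LGV 8 were called, 4 higher and 4 lower, against 40.7% (21.2% higher and 19.5% lower). With VPA, 6 genes were called in low glucose (4 higher, 2 lower, against 41.6% of all genes, 21.7% higher and 19.9% lower). In high glucose 7 were called with VPA (4 higher, 3 lower, against 46.1% of all genes, 25.8% higher and 20.2% lower). The libraries of the groups compared did not overlap for 6 genes between HG and LG, where the share of all genes was 41.2%. They did not overlap for 8 genes between HGV and LGV (51.4% of all genes), for 6 between LGV and LG (50.5%) and for 7 between HGV and HG (54.6%). HG against LG shares the LG libraries with LGV against LG and the HG libraries with HGV against HG, so these comparisons are not independent of each other.

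**Figure D2:**
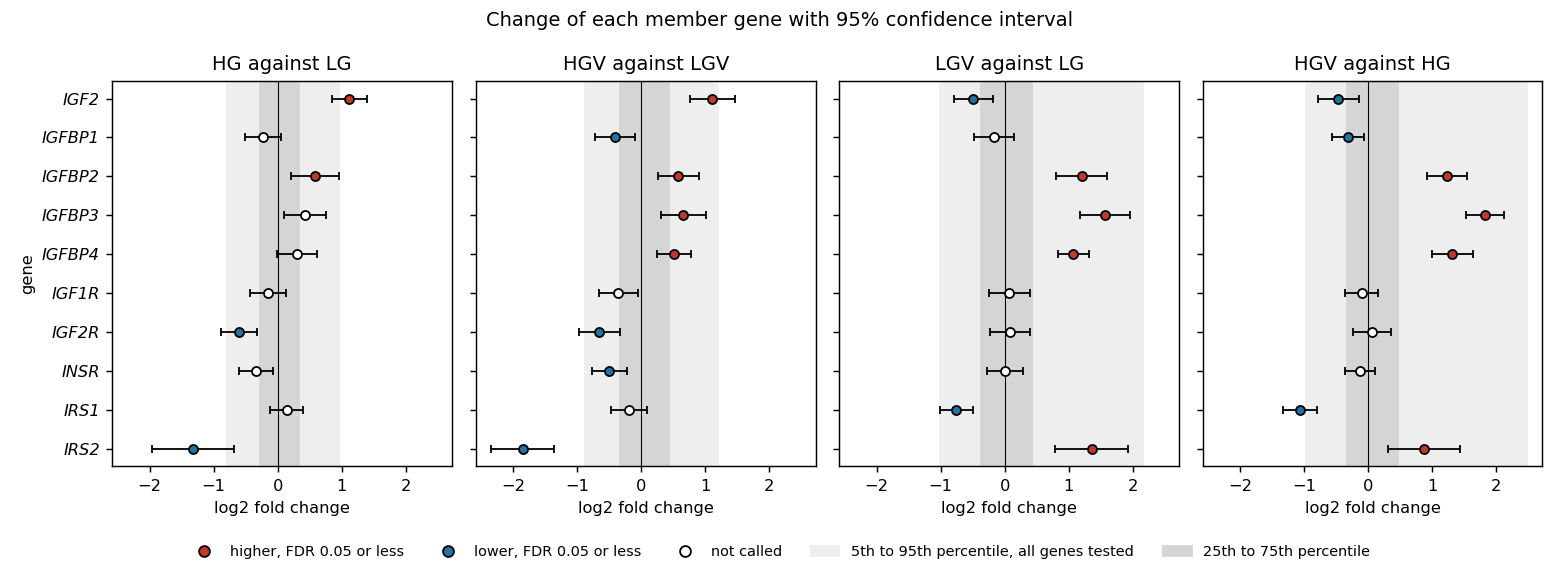
Log2 fold change of the 10 genes with its 95% confidence interval in each of the 4 comparisons, over bands that hold the middle 50% and 90% of all genes tested. Filled points passed an FDR of 0.05 (red higher, blue lower). IGF2 lies at 1.12 and 1.11 in the glucose comparisons, and IGFBP2, IGFBP3 and IGFBP4 lie between 1.07 and 1.83 in the VPA comparisons.

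IGF2, the ligand, was higher in high glucose with and without VPA, and lower with VPA in either medium. The gene (ENSG00000167244) lies on chromosome 11 of GRCh37 from 2150342 to 2179621, on the minus strand. It had 4000, 3241 and 3771 CPM in the LG libraries and 7495, 8572 and 7388 CPM in the HG libraries, in order of replicate number. The HG values were all above the LG values, and IGF2 alone took 0.721% to 0.862% of the counted reads of an HG library, against 0.285% to 0.362% in LG. The log2 fold change was 1.12 (standard error 0.13, FDR 8.84e-06), a 2.17-fold difference, and 5.14% of the genes tested changed as much or more. With VPA, IGF2 had 2605, 2798 and 2379 CPM in LGV and 6222, 4581 and 6187 CPM in HGV. The LGV and HGV libraries again did not overlap (log2 fold change 1.11, standard error 0.17, FDR 6.15e-05). In bulk RNA, fewer cells that express a gene and less RNA per cell cannot be told apart.

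IGF2 was lower with VPA by a smaller amount. The log2 fold change was -0.47 in high glucose (standard error 0.15, FDR 0.0194) and -0.49 in low glucose (standard error 0.14, FDR 0.012). Treated and untreated libraries did not overlap in either medium. These calls rested on single libraries, since the FDR was 0.0882 without HG replicate 2, 0.0715 without LG replicate 1 and 0.0863 without LGV replicate 3. With library size in place of TMM factors, the difference between HGV and HG was -0.34 (FDR 0.0795). The test of a different VPA response in the media gave a log2 difference of 0.04 for IGF2 (95% confidence interval -0.38 to 0.45, FDR 0.973).

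Several transcripts overlap IGF2. Its exons share 2711 bases, 37.9% of their union, with a gene on the same strand that has no symbol. On that strand they also share 1460 bases (20.4%) with the readthrough gene INS-IGF2 and 373 bases with another gene without a symbol. They share 333 bases with the antisense gene IGF2-AS. Of these genes, IGF2-AS alone has its own row in the count table. The overlaps come from a GENCODE annotation that is not the Ensembl release used for counting. Genes without a row may have been absent from that release or left out by its read filter. The library kit marks strand, but whether the counting used it is not stated, so reads of IGF2 and IGF2-AS may not be separated. IGF2-AS rose with high glucose without VPA (log2 fold change 1.18, standard error 0.22, FDR 0.000819), from a mean of 2.20 CPM in LG to 4.92 CPM in HG. With VPA the difference between high and low glucose was 0.53 (FDR 0.0963) and was not called. The interaction of glucose and VPA was not called for IGF2-AS, so a loss of its glucose difference under VPA is not shown. It had 0.601 reads per 1000 IGF2 reads in LG, 0.630 in HG, 0.568 in LGV and 0.388 in HGV, as means of 3 libraries. The HGV range of 0.306 to 0.478 lay below the ranges of the other groups. H19, the imprinted noncoding neighbour of IGF2, was called higher in HG than in LG (log2 fold change 1.24) and in HGV than in LGV (1.07), at 0.997 ± 0.457 CPM in LG and 2.34 ± 0.319 CPM in HG (SD, n = 3). It lies below the minimum level set for naming pathway genes and was picked after its values were seen.

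**Figure D3:**
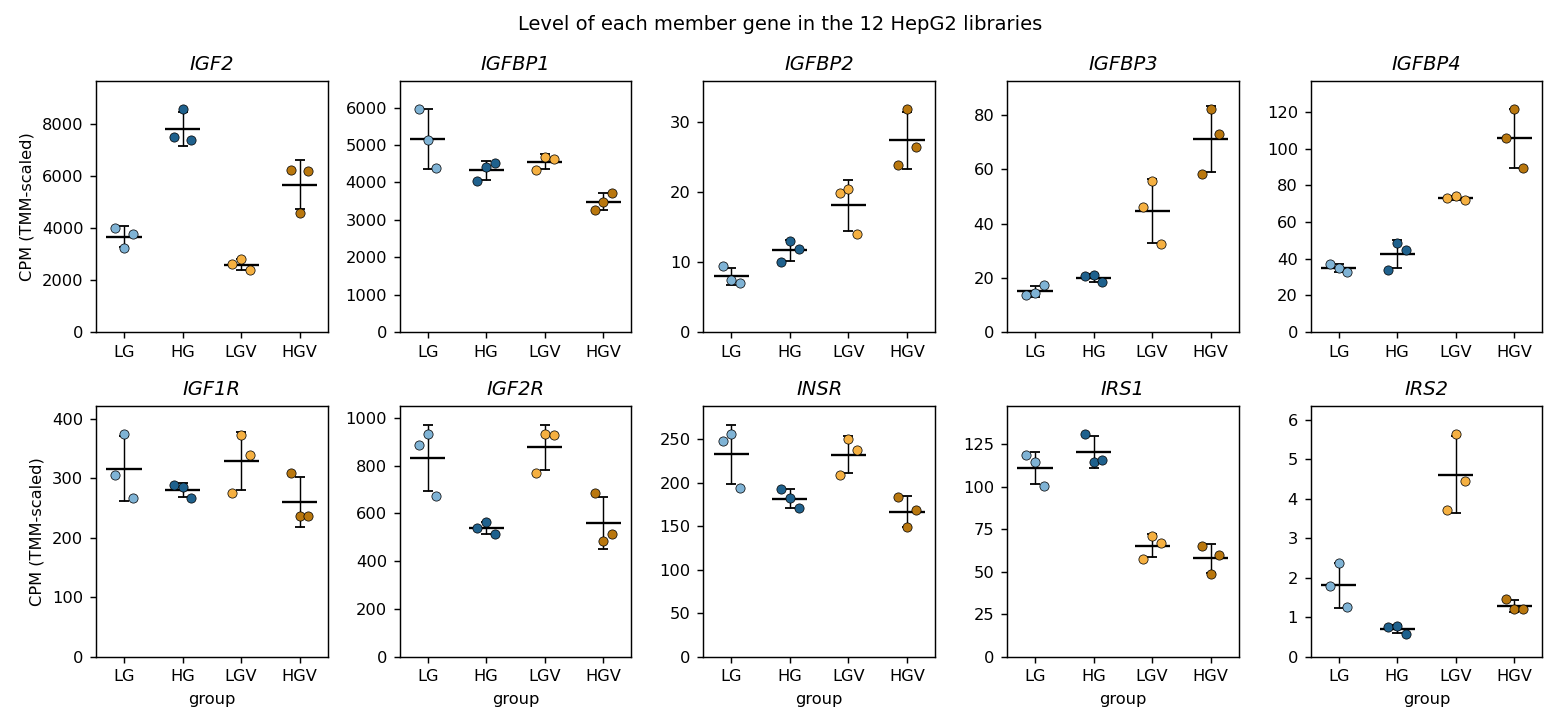
CPM (TMM-scaled) of each of the 10 genes in the 3 libraries of LG, HG, LGV and HGV, with the group mean as a line and the SD as error bars (n = 3), on linear axes from 0. IGF2 separates by glucose, IGFBP2, IGFBP3, IGFBP4 and IRS1 separate by VPA, and the LG libraries of IGF2R, INSR and IGFBP1 spread more widely than the HG libraries.

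IGFBP1 (chromosome 7, 45927959 to 45933259, plus strand) was the most abundant of the 10 genes per length and changed little. It had 5966, 5124 and 4376 CPM in LG and 4033, 4409 and 4531 CPM in HG. LG replicate 3 fell within the HG range, and the log2 fold change of -0.23 was not called (standard error 0.13, 95% confidence interval -0.51 to 0.05, FDR 0.212). Without LG replicate 3 it was -0.33 (FDR 0.0286). With VPA, IGFBP1 had 4336, 4693 and 4640 CPM in LGV and 3259, 3478 and 3731 CPM in HGV. HGV was the lowest group, with log2 fold changes of -0.40 against LGV (standard error 0.15, FDR 0.0379) and -0.31 against HG (standard error 0.12, FDR 0.0448). Neither call was firm. The HGV against LGV call was lost when any library but LGV replicate 1 was left out, with FDR up to 0.144 without LGV replicate 3. The HGV against HG call was lost without HG replicate 2, HG replicate 3 or HGV replicate 1, with FDR from 0.130 to 0.173, and the alternative scalings that end it are given at the close. LGV against LG was not called (log2 fold change -0.17, FDR 0.401).

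IGFBP2, IGFBP3 and IGFBP4 rose together with VPA in both media. These binding proteins have high affinity for IGFs, and IGFBP3 is the main carrier of IGF in blood. IGFBP3 (chromosome 7, 45951844 to 45961473, minus strand), a close neighbour of IGFBP1, had 13.6, 14.3 and 17.5 CPM in LG and 46.1, 55.6 and 32.4 CPM in LGV. It had 20.7, 21.0 and 18.4 CPM in HG and 58.3, 82.2 and 73.1 CPM in HGV. Treated libraries lay well above untreated ones in each medium, with log2 fold changes of 1.57 in low glucose (standard error 0.18, FDR 9.46e-06) and 1.83 in high glucose (standard error 0.14, FDR 4.89e-07).

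IGFBP4 (chromosome 17, 38599702 to 38613977, plus strand) had 37.3, 34.9 and 33.0 CPM in LG and 72.9, 74.4 and 72.1 CPM in LGV. In high glucose it had 34.0, 48.7 and 44.6 CPM without VPA and 105.6, 121.6 and 89.5 CPM with it. Neither pair of groups overlapped, and the log2 fold change was 1.07 in low glucose (standard error 0.11, FDR 3.22e-06) and 1.31 in high glucose (standard error 0.15, FDR 1.65e-05). IGFBP2 (chromosome 2, 217497551 to 217529159, plus strand) had 9.39, 7.51 and 7.02 CPM in LG against 19.9, 20.5 and 14.0 CPM in LGV. It had 10.1, 13.0 and 11.9 CPM in HG against 23.9, 31.9 and 26.4 CPM in HGV. It rose by 1.20 in low glucose (standard error 0.18, FDR 0.000116) and by 1.23 in high glucose (standard error 0.14, FDR 2.19e-05), with no overlap in either medium. Rises of this size were not rare with VPA, since 7.72% of all genes tested in HGV against HG changed by as much as IGFBP3 and 13.2% by as much as IGFBP2.

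The same binding proteins were also higher in high glucose, by less. In HGV against LGV, the log2 fold change was 0.66 for IGFBP3 (standard error 0.17, FDR 0.00468), 0.58 for IGFBP2 (standard error 0.16, FDR 0.00641) and 0.51 for IGFBP4 (standard error 0.13, FDR 0.0036). The libraries of the groups did not overlap for any of the 3 genes, although for IGFBP2 the FDR was 0.0626 without LGV replicate 3. Without VPA, IGFBP2 was called between HG and LG (log2 fold change 0.58, standard error 0.18, FDR 0.0248), but not without HG replicate 2 (FDR 0.125) or HG replicate 3 (FDR 0.0817). IGFBP3, with 0.43 (standard error 0.16, FDR 0.0533), and IGFBP4, with 0.30 (standard error 0.15, FDR 0.149), were not called between HG and LG. IGFBP3 passed without LG replicate 3 (FDR 0.0138) and IGFBP4 without HG replicate 1 (FDR 0.0347).

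IGFBP1 still made up most of the binding protein RNA after these changes. Its share of the summed RPKM of the 4 genes was between 99.1% and 99.3% in LG, 98.7% and 98.9% in HG, 97.8% and 98.2% in LGV, and 95.5% and 96.6% in HGV. The ranges of the 4 groups did not overlap. Ratios within a library do not depend on the scaling factors. The RPKM ratio of IGF2 to IGFBP1 was 0.196 ± 0.0333 in LG, 0.491 ± 0.0440 in HG, 0.155 ± 0.0135 in LGV and 0.442 ± 0.0806 in HGV (SD, n = 3 each). High and low glucose did not overlap in this ratio, with or without VPA. LG (0.172 to 0.234) and LGV (0.139 to 0.163) did not overlap, whereas HG and HGV did.

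**Figure D4:**
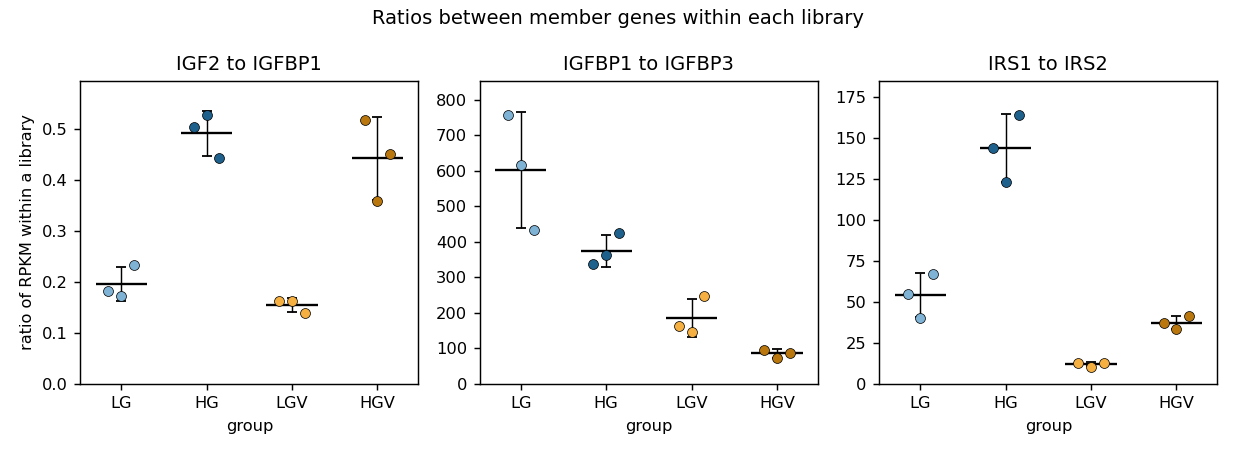
Ratio of RPKM between pairs of the genes within each library (IGF2 to IGFBP1, IGFBP1 to IGFBP3, IRS1 to IRS2), with group mean and SD (n = 3), on linear axes from 0. IGF2 to IGFBP1 lies between 0.357 and 0.528 in high glucose and between 0.139 and 0.234 in low glucose. IRS1 to IRS2 is highest in HG and lowest in LGV.

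Sequence before the transcription start was taken for the members from RefSeq promoters on GRCh38.p14, a newer build than that of the counts. Entries were matched by symbol for 8 of the 10 genes. IGF2 and IGFBP1 are not shown. The 250 bases before the start are printed 5′ to 3′ for IGFBP3 and IGFBP4, which rose together with VPA. Capitals mark matches on either strand to the GC box (GGGCGG), the TATA box (TATAAA), the E-box (CACGTG) and a core of the insulin response element (TGTTTTG). For IGFBP3 the window is chr7:45921273-45921522 on the minus strand and for IGFBP4 it is chr17:40443200-40443449 on the plus strand.
IGFBP3: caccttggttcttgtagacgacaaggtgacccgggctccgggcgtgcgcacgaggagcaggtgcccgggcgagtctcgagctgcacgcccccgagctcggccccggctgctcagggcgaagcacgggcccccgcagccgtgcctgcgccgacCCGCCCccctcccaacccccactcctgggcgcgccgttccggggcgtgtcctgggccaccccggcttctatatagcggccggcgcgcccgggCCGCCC
IGFBP4: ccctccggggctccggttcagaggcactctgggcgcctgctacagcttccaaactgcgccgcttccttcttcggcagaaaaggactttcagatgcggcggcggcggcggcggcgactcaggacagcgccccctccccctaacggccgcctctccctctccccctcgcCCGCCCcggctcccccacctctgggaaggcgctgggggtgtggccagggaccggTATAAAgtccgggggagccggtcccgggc
The IGFBP3 window held 2 GC boxes and the IGFBP4 window 1 GC box and 1 TATA box. Of 35116 promoter windows of this length, 42.6% held a GC box, 10.7% a TATA box, 6.34% the E-box and 4.30% the insulin response core. Base composition was 76.0% G and C for IGFBP3 and 71.6% for IGFBP4, against a median of 58.0% over all windows. The windows of IGFBP2, which also rose with VPA, held 56.8%, 69.2% and 56.4%. IGF1R (81.2%), IGF2R (79.2%) and INSR (78.4%), not called in the VPA comparisons, stood higher than IGFBP3. So did IRS1 (80.8%), lower with VPA, and IRS2 (76.4%), higher with VPA. A high share was thus not particular to genes that rose. A match describes letters in the window and does not show that a factor binds there.

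Of the 3 receptors, IGF2R was lower in high glucose with and without VPA, INSR was called lower with VPA present, and none was called in the VPA comparisons. IGF2R (chromosome 6, 160390114 to 160534539, plus strand), the scavenger of IGF2, moved opposite to its ligand in glucose. It had 888, 934 and 674 CPM in LG and 540, 563 and 514 CPM in HG, with no overlap (log2 fold change -0.60, standard error 0.13, FDR 0.00308). It had 769, 931 and 929 CPM in LGV and 686, 484 and 516 CPM in HGV, again with no overlap (log2 fold change -0.66, standard error 0.15, FDR 0.00229). The log2 fold change with VPA was 0.09 in low glucose (95% confidence interval -0.22 to 0.40) and 0.06 in high glucose (-0.23 to 0.35), and neither was called. The exons of the pseudogene CHP1P2, which has its own row in the table, overlap 571 bases of IGF2R exons on the same strand.

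INSR (chromosome 19, 7112266 to 7294425, minus strand), the insulin receptor, had 248, 257 and 194 CPM in LG and 192, 183 and 171 CPM in HG. LG replicate 3 lay just above HG replicate 1, and the log2 fold change of -0.33 was not called (standard error 0.13, FDR 0.062). Without LG replicate 3 it was -0.45 (FDR 0.00561). With VPA, INSR had 209, 250 and 238 CPM in LGV and 184, 149 and 169 CPM in HGV, a called difference of -0.50 (standard error 0.13, FDR 0.00487). VPA gave a log2 fold change of 0.01 in low glucose (95% confidence interval -0.27 to 0.29) and -0.12 in high glucose (-0.36 to 0.11).

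IGF1R (chromosome 15, 99191768 to 99507759, plus strand), the receptor that transmits most IGF signals, was not called in the main edgeR fit of any comparison. Its library values ran from 266 to 375 CPM in LG, from 266 to 288 CPM in HG, from 276 to 372 CPM in LGV and from 236 to 309 CPM in HGV. The groups overlapped in each comparison. The log2 fold change between HGV and LGV was -0.36 (95% confidence interval -0.66 to -0.05, FDR 0.0587), and it passed with DESeq2's Wald test (FDR 0.0389), with a replicate block (FDR 0.0183) and without HGV replicate 1 (FDR 0.0234) or LGV replicate 1 (FDR 0.0191). The ratio of IGF2R to IGF1R RPKM was between 2.17 and 2.52 in LG and between 1.63 and 1.72 in HG. It was between 2.18 and 2.43 in LGV and between 1.79 and 1.93 in HGV, so that low and high glucose did not overlap in it. The splice forms of INSR that differ in IGF2 binding cannot be resolved from counts per gene.

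The receptor substrates moved in opposite directions with VPA. IRS1 (chromosome 2, 227596028 to 227664536, minus strand) had 118, 115 and 100.4 CPM in LG and 57.7, 71.1 and 66.8 CPM in LGV. It had 131, 114 and 116 CPM in HG and 64.9, 48.6 and 59.9 CPM in HGV. Treated libraries were lower with no overlap in each medium, with log2 fold changes of -0.76 in low glucose (standard error 0.12, FDR 0.000164) and -1.06 in high glucose (standard error 0.12, FDR 1.88e-05). Glucose gave 0.14 without VPA (95% confidence interval -0.11 to 0.39, FDR 0.426) and -0.19 with VPA (-0.47 to 0.08, FDR 0.256).

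IRS2 (chromosome 13, 110405042 to 110438930, minus strand) was rare, with 21 to 174 reads per library, each above the floor of 3. It had 1.79, 2.37 and 1.25 CPM in LG and 0.761, 0.778 and 0.588 CPM in HG. With VPA it had 3.72, 5.65 and 4.46 CPM in LGV and 1.47, 1.21 and 1.21 CPM in HGV. IRS2 was thus lower in high glucose and higher with VPA, without overlap in any of the 4 comparisons. Its log2 fold change with high glucose was -1.33 without VPA (standard error 0.31, FDR 0.00429) and -1.85 with VPA (standard error 0.23, FDR 1.36e-05). The second of these was the largest change of the 10 genes in any comparison, and 1.52% of all genes tested there changed by as much. IRS2 was higher with VPA by 1.36 in low glucose (standard error 0.27, FDR 0.000848) and by 0.87 in high glucose (standard error 0.26, FDR 0.0156). The rise in high glucose was not called without HG replicate 3 (FDR 0.0776) or HGV replicate 1 (FDR 0.0572). Despite these changes IRS1 stayed the more abundant substrate, with RPKM ratios of IRS1 to IRS2 of 54.1 ± 13.3 in LG, 144 ± 20.6 in HG, 12.0 ± 1.31 in LGV and 37.2 ± 4.01 in HGV (SD, n = 3 each).

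The 250 bases before the start are also shown for IRS1 and IRS2, which moved apart with VPA, with the same motifs in capitals. For IRS1 the window is chr2:226799821-226800070 and for IRS2 it is chr13:109786584-109786833, each on the minus strand of GRCh38.p14.
IRS1: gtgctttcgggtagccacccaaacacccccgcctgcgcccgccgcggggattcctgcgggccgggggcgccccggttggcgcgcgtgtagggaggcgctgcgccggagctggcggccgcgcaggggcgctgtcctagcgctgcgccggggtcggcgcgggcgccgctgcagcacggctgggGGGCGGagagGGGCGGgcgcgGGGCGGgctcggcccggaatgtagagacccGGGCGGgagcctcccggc
IRS2: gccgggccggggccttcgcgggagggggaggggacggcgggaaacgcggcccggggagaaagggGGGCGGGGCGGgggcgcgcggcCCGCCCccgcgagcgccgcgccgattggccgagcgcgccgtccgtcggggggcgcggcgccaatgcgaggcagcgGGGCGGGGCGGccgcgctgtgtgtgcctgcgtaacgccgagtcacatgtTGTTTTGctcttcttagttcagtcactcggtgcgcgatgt
The IRS1 window held 4 GC boxes and the IRS2 window 5, of which some overlap each other. The IRS2 window also held the insulin response core, once. No other window of the 8 genes did. The IGF2R window held 3 copies of the E-box, and no other window of the 8 genes held one.

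Whether the difference with VPA varied between high and low glucose was tested as an interaction over the 12 libraries. None of the 10 genes was called by edgeR, none had an unadjusted p under 0.05, and DESeq2's Wald test also called 0 with 0 unadjusted p under 0.05. Over all genes edgeR called 7, or 0.0427% of 16389 (0.0244% higher and 0.0183% lower), and DESeq2 called 162. The smallest p of the 10 was that of IRS1 (0.117, FDR 0.565), with a difference of -0.29 on the log2 scale (95% confidence interval -0.66 to 0.08). For IRS2 the difference was -0.48 with an interval of -1.28 to 0.32. For IGFBP3 it was 0.27 with an interval of -0.23 to 0.77, so the size of difference that the data leave possible varied between the genes.

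Other genes of insulin and IGF signalling were described from a list of 61 symbols in 5 groups, of which 53 were in the table. Between HG and LG, 7 of the 51 tested were higher and 5 lower, a share close to the 24.7% called over all genes. SOCS3, a feedback inhibitor of cytokine and insulin signalling, rose from 4.39 ± 1.10 to 16.0 ± 1.12 CPM (SD, n = 3), and its log2 fold change was 1.89 (FDR 2.28e-06). G6PC, which releases glucose from the liver cell, rose by 1.18 (FDR 0.000304), and SESN3, a FOXO target, rose by 0.82 (FDR 0.0154). FURIN, a convertase that cleaves the precursors of INSR and IGF1R, fell by 0.92 (FDR 0.00127), and TRIB3, a pseudokinase reported to bind AKT, fell by 0.81 (FDR 0.000657). STC2, an inhibitor of IGFBP proteases, fell by 0.40 (FDR 0.0154). Median log2 fold change was -0.13 for the list and 0.01 for all genes tested.

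Between HGV and LGV, 8 of 53 were higher and 18 lower, where 21.2% of all genes were called higher and 19.5% lower. The 20 measured genes of the PI3K, AKT and mTOR steps held 10 that were lower and 0 that were higher, with a median log2 fold change of -0.39. TRIB3 fell by 1.36 (FDR 1.35e-06). Of the FOXO factors and their liver targets, 4 of 6 were higher and 1 lower, led by PCK1, an enzyme of gluconeogenesis, with 1.15 (FDR 4.39e-06) and G6PC with 1.08 (FDR 5.9e-05). SOCS1 and SOCS3 rose by 1.24 and 1.23. IGF2BP1 and IGF2BP2, which bind IGF2 mRNA among others, fell by 0.86 and 0.44, and IGFBP6 fell by 0.63. The median log2 fold change of the list was -0.18, against 0.01 for all genes tested.

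With VPA, 12 of 53 were higher and 21 lower in high glucose, and 9 were higher and 17 lower in low glucose. Over all genes 25.8% were called higher and 20.2% lower in high glucose, and 21.7% higher and 19.9% lower in low glucose. The 3 IGF2 mRNA binding proteins were lower in each medium. IGF2BP1 fell from 440 ± 25.4 to 239 ± 23.3 CPM in low glucose and from 364 ± 27.2 to 133 ± 9.23 CPM in high glucose (SD, n = 3 each). Its log2 fold changes were -0.87 (FDR 5.3e-05) and -1.45 (FDR 4.18e-07). IGF2BP2 fell by 0.48 and 0.78, and IGF2BP3 by 0.56 and 0.76. SESN3 rose from 1.64 ± 0.115 to 12.4 ± 1.47 CPM and from 2.87 ± 0.378 to 20.4 ± 3.77 CPM (SD, n = 3 each), with log2 fold changes of 2.92 and 2.83. Of the 6 FOXO factors and liver targets, 2 were higher and 1 lower in low glucose, and 3 higher and 1 lower in high glucose. The lower gene was G6PC in each medium, with -0.68 in low glucose (FDR 0.0208) and -0.74 in high glucose (FDR 0.00166). PIK3R3, a regulatory subunit of PI3K, rose by 1.73 and 1.81, and SH2B2, an adaptor of the insulin receptor, rose by 1.78 and 1.48, in low and high glucose. IGFBP6 rose by 0.93 (FDR 0.00185) and 0.69 (FDR 0.0435) and STC2 fell by 0.70 and 0.45. RPTOR, the defining subunit of mTORC1, fell by 0.86 in low glucose (FDR 8.93e-05), with -0.67 in high glucose (FDR 0.000247). FOXO4 rose by 0.77 in low and 0.58 in high glucose (FDR 0.000688). TRIB3 fell by 1.04 in high glucose, with -0.52 in low glucose (FDR 0.0171). SOCS1 fell by 1.04 in low glucose and was not called in high glucose (-0.23, FDR 0.21). In high glucose PCK1 rose by 0.79 while SOCS3 and IGF2-AS fell by 1.07 and 1.20. These were not called in low glucose (0.14, -0.43 and -0.57, with FDR of 0.481, 0.152 and 0.0889). None of the 53 genes was called in the interaction of glucose and VPA. The median log2 fold change of the list was -0.23 in high and -0.13 in low glucose, against 0.02 and -0.01 for all genes tested.

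**Figure D5:**
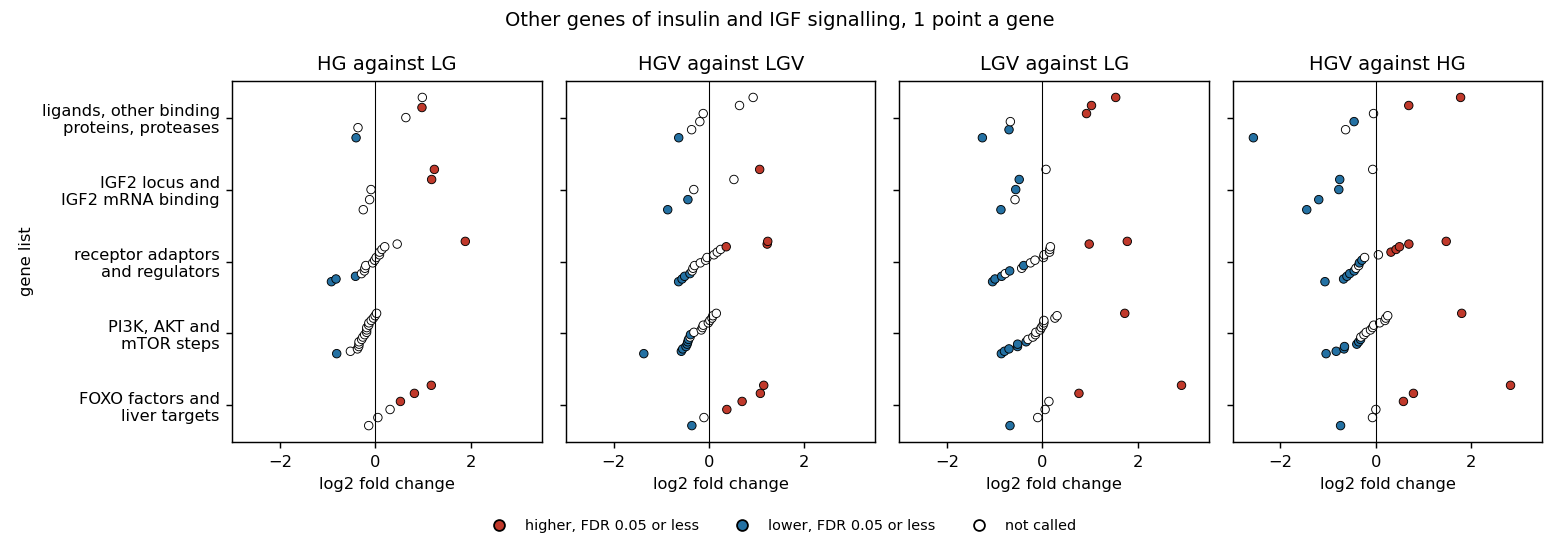
Log2 fold change of the listed insulin and IGF signalling genes outside the 10 members, 1 point a gene in 5 groups, for the 4 comparisons. Filled points passed an FDR of 0.05 (red higher, blue lower). The points of the PI3K, AKT and mTOR steps lie mostly left of 0 in HGV against LGV, and SESN3 lies at 2.92 and 2.83 in the VPA comparisons.

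The genes whose pattern over the 12 libraries was most like that of IGF2, by Pearson's r of log2 CPM among 11714 genes, were COL18A1 (0.97), SREBF2 (0.96) and CTGF (0.96). COL18A1, a collagen gene, had 193 ± 12.8 CPM in LG, 283 ± 10.9 in HG, 155 ± 15.6 in LGV and 222 ± 16.7 in HGV (SD, n = 3 each), higher in high glucose and lower with VPA as IGF2 was. Those most like IGFBP1 were ALKBH7 (0.96), NFKBIL1 (0.96) and TRIB3 (0.96), each lowest in HGV. The libraries fall in 4 groups that share culture and treatment, so these values describe likeness of group means and carry no test.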

How the data were processed

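RNA-seq of 12 HepG2 libraries, 3 for each of LG, HG, LGV and HGV, was used. Per the study's methods the authors trimmed low-quality bases, mapped reads to GRCh37 using STAR and assigned them to genes using featureCounts. They deposited raw counts per Ensembl gene for 16389 genes, with genes averaging under 10 reads per sample left out. Whether counting used the strand is not stated. Totals ran from 29798442 to 45572694 reads. No batch is given in the labels.

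Genes with a mean of at least 10 reads in the libraries compared were tested with edgeR 4.0.16 (R 4.3.3, TMM factors, quasi-likelihood F test, Benjamini-Hochberg FDR over all genes tested, threshold 0.05). Standard errors were taken as the log2 fold change divided by the square root of F. Each comparison was fitted on its own 6 libraries and the interaction on all 12. The test was checked on simulated data with few changed genes, up and down alike, and the same spread for every gene. That setting differs from these data, so the check does not vouch for the calls here. RPKM used the main transcript. Lengths, positions and overlaps came from GENCODE annotation lifted to GRCh37, which is not the Ensembl release the authors counted with. Promoter sequences came from RefSeq. The members and lists were chosen with earlier results of these data known. Pathway genes were named by a rule: the 2 of each group with the largest change among called genes whose mean log2 CPM was 1 or more, and the 3 genes most like IGF2 and IGFBP1 with at least 30 reads in each library. Of the listed genes, 2 are not reported here by name or point, though counts and medians of the list include them. IGF2BP2 and IGF2BP3 were named as the rest of their family. Genes named in 1 comparison are in places also given in another, outside this rule, as G6PC is with VPA. Alternatives were DESeq2 size factors, library size and upper quartile in place of TMM, DESeq2 1.42.0 (Wald test), 2 other filters (none, or 1 CPM in at least 3 libraries), a replicate block, one fit of all 12 libraries, an FDR of 0.01, and leaving out each library. Another length for RPKM was added after seeing the data. Figures were drawn with matplotlib 3.10.9.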

Additional observations from a re-analysis of the deposited data

How the results depend on the processing

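Over 750 recomputed fold changes of the 10 genes, no called value changed sign, 22 calls were lost and 12 gained. At an FDR of 0.01, 4 of the 10 genes passed between HGV and HG in place of 7. The share of all genes that passed 0.01 was not counted, so this fall cannot be set against it. Leaving out a library gave 3 to 7 called genes of the 10 between HG and LG, and 1933 to 5338 over all genes. The number was 7 without LG replicate 3, with IGFBP1, IGFBP3 and INSR added. Calls over all genes then rose from 3813 of 15452 to 5338 of 15407. Between HGV and HG the number ran from 5 to 7, and calls over all genes from 6083 to 7793, against 7456 as reported. Between LGV and LG it ran from 5 to 6, and over all genes from 4942 to 6986, against 6638. Between HGV and LGV it ran from 6 to 9, and over all genes from 4516 to 7228, against 6604. For the interaction the number of the 10 called was 0 under each alternative. Calls over all genes there ran from 1 to 217 (217 without LG replicate 2, 162 with DESeq2, 7 as reported). Library size in place of TMM moved the median log2 fold change of all genes from 0.02 to 0.15 between HGV and HG, from -0.01 to 0.16 between LGV and LG and from 0.01 to 0.11 between HG and LG (higher and lower calls over all genes then stood at 2172 and 1297 between HG and LG, against 1854 and 1959, at 5182 and 2424 between HGV and HG, against 4184 and 3272, and at 4500 and 1956 between LGV and LG, against 3461 and 3177). Upper quartile factors gave 2458 and 1366 between HG and LG, and 4126 and 2375 between HGV and LGV, against 3444 and 3160. Library size in place of TMM ended the call of IGFBP1 between HGV and HG (-0.19, FDR 0.174). That call also ended with upper quartile factors (FDR 0.111) and one fit of all 12 libraries (FDR 0.0585). Upper quartile factors also ended the call of IGFBP1 between HGV and LGV. IGFBP3 passed between HG and LG with library size (FDR 0.0369), upper quartile (FDR 0.025), DESeq2 (FDR 0.0318) and no filter (FDR 0.0461). The cause was not tested. Whether same-numbered libraries of different groups were paired is not settled with 3 libraries per group. The correlations of their deviations ran from -0.20 to 0.29, and no comparison had every library closest to its own number. Same-numbered and different-numbered libraries had means of 0.09 and -0.05 between HGV and HG, and 0.03 and -0.01 between LGV and LG. The means were 0.08 and -0.04 between HGV and LGV, and -0.08 and 0.04 between HG and LG. The replicate block called 4 genes between HG and LG, 6 between HGV and HG (IGFBP1 lost, FDR 0.0768), 6 between LGV and LG and 9 between HGV and LGV (IGF1R gained, FDR 0.0183). Over all genes the block called 3351 of 15452, 8229 of 16188, 6971 of 15944 and 7308 of 16208 in the same order. With the union of all exons as length, 23 of 40 mean RPKM values moved by more than their SD, and IGFBP2 in LG fell from 5.64 to 1.68 RPKM.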
